A study of Mus musculus with 32 samples.

Results

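RNA polymerase II phosphorylated at serine 5 of its C-terminal repeats (RNAP-ser5) was mapped by chromatin immunoprecipitation and sequencing in wild-type mouse embryonic stem cells and in cells without Taf5l or without Taf6l. Every RNAP-ser5 peak that the authors called on chromosomes 1 to 19 was taken, which gave 80760 of the 371463 peaks in the 26 peak lists of the series. The wild type held 43394 of them, the Taf5l-KO 21493 and the Taf6l-KO 15873. A peak was placed at a promoter when it shared at least 1 bp with an H3K4me3 peak of the same genotype, and all other peaks are called elsewhere. The promoter class therefore rests on a histone mark and not on annotated start sites.

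The C-terminal domain of the largest polymerase II subunit is a tail of repeated short units. CDK7, a kinase of the general factor TFIIH, phosphorylates its serine 5 as the polymerase starts a transcript, so that the mark is known from promoters and the first part of genes. Serine 2 is phosphorylated later and is known from gene bodies. H3K4me3 is a histone mark of active and poised promoters, and H3K9ac is an acetyl mark of active ones. TAF5L and TAF6L are subunits of the PCAF/SAGA coactivator complex, which carries a histone acetyltransferase.

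All 3 groups were J1 cells, a male mouse embryonic stem cell line, grown with serum and the cytokine LIF and cross-linked with formaldehyde. By their labels the groups differed in genotype: unmodified J1, J1 with the knockout of Taf5l, and J1 with the knockout of Taf6l. Whether a knockout was a single clone is not given in the sources used here. Each antibody was sequenced once per genotype, so no difference between genotypes can be set against replicate error and no test between genotypes was made. Intervals in parentheses are exact Clopper-Pearson 95% binomial intervals of a share, and they cover counting error only. A peak list cannot tell less polymerase in each cell from fewer cells with polymerase at the site.

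The RNAP-ser5 libraries differed in depth, and in opposite directions in the knockouts. The wild-type library had 3871824 unique tags, the Taf5l-KO library 8807133 and the Taf6l-KO library 1702363. Duplicates made up 87.8%, 77.5% and 92.6% of the tags in that order. In unique tags the Taf5l-KO library was 2.27 times the wild type and the Taf6l-KO library 0.440 times. The peak caller scaled the larger of library and input to the size of the smaller. For the Taf5l-KO the smaller was the input, with 6245652 tags. By this smaller size the Taf5l-KO was at 1.61 times the wild type and the Taf6l-KO at 0.440 times. These depths stand beside every comparison that follows. The H3K4me3 lists that define promoters were close in size, with 31027, 30701 and 28093 peaks in the same order and a median width of 794, 792 and 792 bp. Of these H3K4me3 peaks, 25.3%, 25.6% and 26.6% carried an RNAP-ser5 peak.

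The antibody's label was first set against the other polymerase lists. At wild-type promoters 84.5% (83.7 to 85.3) of the RNAP-ser5 peaks overlapped a peak of total polymerase (RNAP), and 81.9% (81.0 to 82.7) overlapped serine 2 phosphorylated polymerase (RNAP-ser2). Elsewhere the shares were 14.1% (13.7 to 14.4) and 31.5% (31.0 to 32.0). In the Taf5l-KO 93.1% of the promoter peaks and 21.8% of those elsewhere overlapped RNAP, and in the Taf6l-KO 93.8% and 15.7%. RNAP-ser5 peaks at promoters thus lay mostly on polymerase peaks in each genotype, while most of those elsewhere had no RNAP peak under them.

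The first question was where the peaks lay in each genotype. The number of RNAP-ser5 peaks at promoters was nearly the same in the 3 genotypes, while the number elsewhere was far lower in both knockouts. Promoters held 8262 peaks in wild type, 8239 in the Taf5l-KO and 7625 in the Taf6l-KO, which is 0.997 and 0.923 times the wild type. Elsewhere there were 35132, 13254 and 8248 peaks, or 0.377 and 0.235 times the wild type. Promoters therefore made up 19.0% (18.7 to 19.4) of the wild-type list, 38.3% (37.7 to 39.0) of the Taf5l-KO list and 48.0% (47.3 to 48.8) of the Taf6l-KO list. Both knockout shares lay above the wild type. The Taf5l-KO library was deeper than that of the wild type and the Taf6l-KO library shallower, and the part of depth in the shares was not tested.

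**Figure D1:**
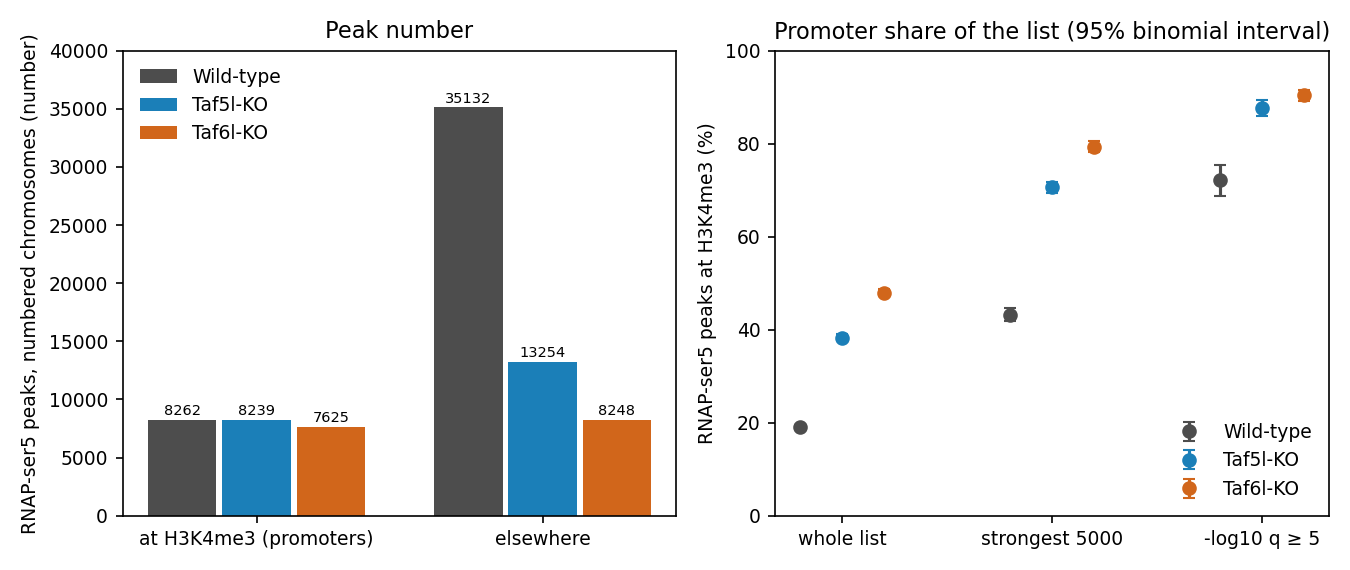
The left panel gives the number of RNAP-ser5 peaks (vertical axis) at H3K4me3 and elsewhere for each genotype, 1 library each. The right panel gives the share of the list at H3K4me3 in percent for the whole list, the strongest 5000 peaks and the peaks with −log10 q of at least 5, with 95% binomial intervals. Bars at promoters are level, bars elsewhere are lower in the knockouts, and both knockouts lie above the wild type in each set.

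The share at promoters was higher in the knockouts at every strength of peak examined. Among the 5000 peaks with the highest −log10 q of each list, 43.2% (41.8 to 44.6) of the wild-type peaks lay at promoters, against 70.6% (69.3 to 71.8) in the Taf5l-KO and 79.4% (78.2 to 80.5) in the Taf6l-KO. With −log10 q of at least 5 the shares were 72.1% (68.7 to 75.4), 87.7% (85.9 to 89.5) and 90.4% (89.1 to 91.6). The lists were also divided into 6 ranges of −log10 q, and both knockouts lay above the wild type in 6 of 6. In the weakest range, below 1.5, the shares were 9.87%, 16.2% and 16.7%. In the strongest range, 10 and above, they were 75.4% (68.3 to 81.7), 87.9% (83.4 to 91.5) and 81.4% (74.4 to 87.2), and there the intervals of wild type and Taf6l-KO overlapped. By chromosome the share ran from 15.9% to 22.5% in wild type, from 29.9% to 44.7% in the Taf5l-KO and from 44.1% to 50.7% in the Taf6l-KO, so that on 19 of 19 chromosomes each knockout was above the wild type. Ranges and chromosomes are parts of the same library of each genotype, so these counts are not replicates.

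The ratios of peak number depended on the strength required. With −log10 q of at least 5, promoters held 518 wild-type peaks, 1166 Taf5l-KO peaks and 1945 Taf6l-KO peaks, and the ratios to wild type were 2.25 and 3.75. Elsewhere the same threshold left 200, 163 and 206 peaks, with ratios of 0.815 and 1.03. Among peaks past this threshold the knockouts thus had more promoter peaks and similar numbers elsewhere. The lower number elsewhere in the whole lists came from peaks of low −log10 q. These values rank peaks within a list, and the libraries differed in depth, so 1 threshold need not mean the same strength in each genotype. In wild type 99.4% of the peaks elsewhere had −log10 q under 5.

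The other polymerase lists gave the same order of promoter share between wild type and knockouts over a smaller range. For RNAP the wild-type share was 54.8%, against 70.7% in the Taf5l-KO and 65.6% in the Taf6l-KO, and the peak number elsewhere was 0.457 and 0.696 times the wild type. For RNAP-ser2 the shares were 26.4%, 33.6% and 34.5%, with ratios elsewhere of 0.661 and 0.871. In unique tags RNAP had 3.07 times its wild type in the Taf5l-KO and 1.40 times in the Taf6l-KO, and RNAP-ser2 0.856 and 0.610 times. By the smaller of library and input the RNAP ratios were 1.21 and 1.14, and those of RNAP-ser2 were unchanged. With 1 library of each, whether RNAP-ser5 differed from these lists was not tested.

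Peak width was compared next, and here the knockouts departed from the wild type in different ways. At promoters the median width was 558 bp in wild type, 542 bp in the Taf5l-KO and 487 bp in the Taf6l-KO. Elsewhere it was 376 bp, 528 bp and 234 bp, so that the Taf5l-KO peaks were wider and the Taf6l-KO peaks narrower than those of the wild type. Peaks no wider than the fragment length that the caller had estimated (141, 142 and 137 bp) made up 19.0%, 6.04% and 30.1% of the peaks elsewhere. The order of these values elsewhere follows that of the unique tags, and the part of depth in them was not tested.

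Very wide peaks were nearly gone from the Taf6l-KO list. Peaks of over 5000 bp numbered 197 at wild-type promoters, 191 in the Taf5l-KO and 10 in the Taf6l-KO. Elsewhere they numbered 235, 292 and 11. The DNA covered by promoter peaks was 7.82 Mb, 7.71 Mb and 4.57 Mb, and by peaks elsewhere 20.8 Mb, 12.3 Mb and 3.12 Mb. The Taf6l-KO promoters thus had close to the wild-type number of peaks over 0.584 times the wild-type length.

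**Figure D2:**
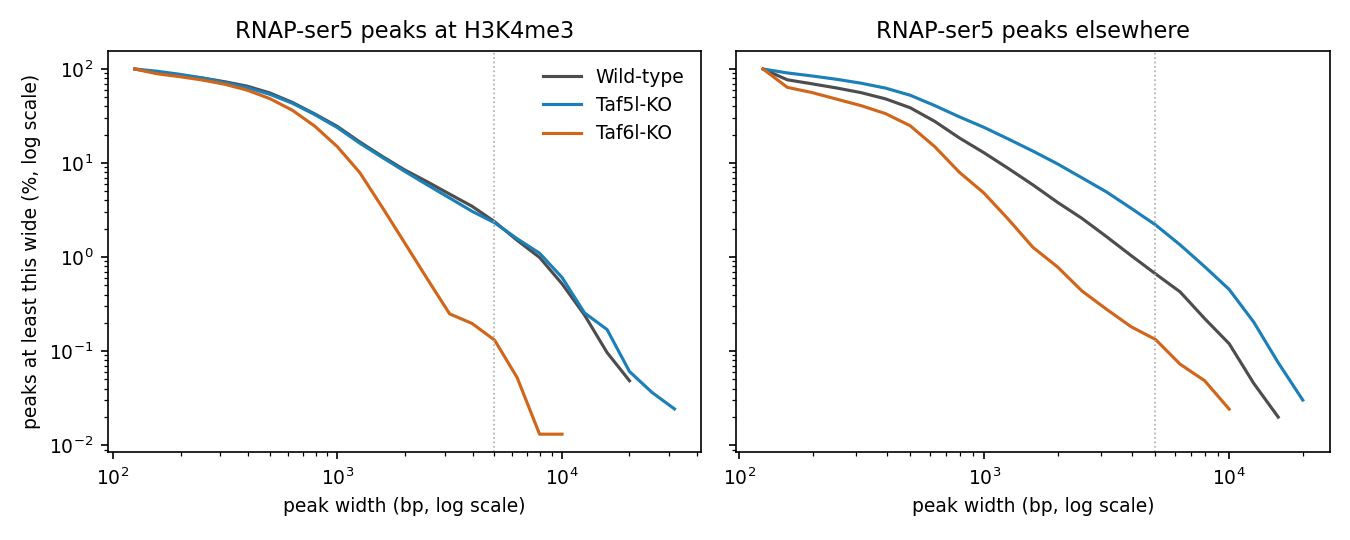
The percent of RNAP-ser5 peaks at least as wide as the value on the horizontal axis (bp), at H3K4me3 on the left and elsewhere on the right, both axes on a log scale. Lines are the genotypes and the dotted line marks 5000 bp; at H3K4me3 the wild-type and Taf5l-KO lines run together and the Taf6l-KO line falls away above 1000 bp, while elsewhere the 3 lines separate.

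Most sites of the wide wild-type peaks were still marked in the Taf6l-KO, but mostly over a small part of their length. Of the 197 wild-type promoter peaks of over 5000 bp, 195 were overlapped in the Taf5l-KO and 179 in the Taf6l-KO, beside 26.3% and 16.0% of all wild-type peaks. The overlapping peaks covered a median of 87.2% of the wild-type peak in the Taf5l-KO (quartiles 71.2% and 95.1%) and 21.9% in the Taf6l-KO (9.38% and 36.9%). For the 235 wide peaks elsewhere, 233 and 176 were overlapped, with a median of 85.8% and 9.73% covered. All 197 wide promoter peaks and 231 of the 235 elsewhere also overlapped wild-type RNAP.

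The widest wild-type promoter peak shows the pattern at a single place. It spanned 25183 bp on chromosome 1 from 155286629 to 155311811 (mm9), with 3 Taf5l-KO peaks over 82.3% of it and 6 Taf6l-KO peaks over 28.0%. The second, on chromosome 11 from 51395726 to 51420638, lay almost wholly under a Taf5l-KO peak of 34122 bp, while 9 Taf6l-KO peaks covered 47.4% of it. The third, on chromosome 6 from 39333565 to 39356571, had 4 Taf5l-KO peaks over 86.9% and 6 Taf6l-KO peaks over 15.4%. RNAP and RNAP-ser2 peaks of all 3 genotypes overlapped each of these regions. H3K4me3 was called at the first in wild type only, and at the second in all 3 genotypes. At the third it was called in wild type and Taf5l-KO. No gene name is attached to them, since no annotation of this genome build was used here.

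The next comparison asked whether the same sites carried a peak in each genotype. Wild-type promoter peaks were overlapped in the knockouts far more often than wild-type peaks elsewhere. Over the whole wild-type list 26.3% of the peaks were overlapped by a Taf5l-KO peak and 16.0% by a Taf6l-KO peak. At promoters the shares were 61.8% (60.7 to 62.8; 5105 of 8262) and 59.2% (58.2 to 60.3; 4895 of 8262). Elsewhere they were 18.0% (17.6 to 18.4; 6313 of 35132) and 5.82% (5.58 to 6.07; 2045 of 35132). In the whole lists the knockouts were thus close to each other at promoters and apart elsewhere, with 20.0 Mb of DNA under Taf5l-KO peaks and 7.69 Mb under Taf6l-KO peaks. When each list was limited to −log10 q of at least 5, the knockouts were apart at promoters too, with 66.2% and 39.4% overlapped there and 30.5% and 20.0% elsewhere.

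Strength in the wild type did not remove the difference between places. When the wild-type list was cut into 10 equal groups by the authors' fold enrichment over input, promoter peaks of the weakest group were overlapped in 30.4% (25.1 to 36.1) of cases by the Taf5l-KO and 28.3% (23.1 to 33.9) by the Taf6l-KO. In the strongest group the shares were 81.6% and 76.7%. Elsewhere they were 7.02% and 5.77% in the weakest group and 33.9% and 15.7% in the strongest. In the Taf5l-KO the strongest group elsewhere was therefore found again about as often as the weakest group at promoters. In the Taf6l-KO it was found less often. Both statements hold for groups of fold enrichment only. Where the wild-type −log10 q reached 5, whole knockout lists overlapped 61.0% (Taf5l-KO) and 51.5% (Taf6l-KO) elsewhere, above the weakest promoter group. The same threshold, chosen for this use after seeing the data, gave 94.8% and 87.5% at promoters.

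**Figure D3:**
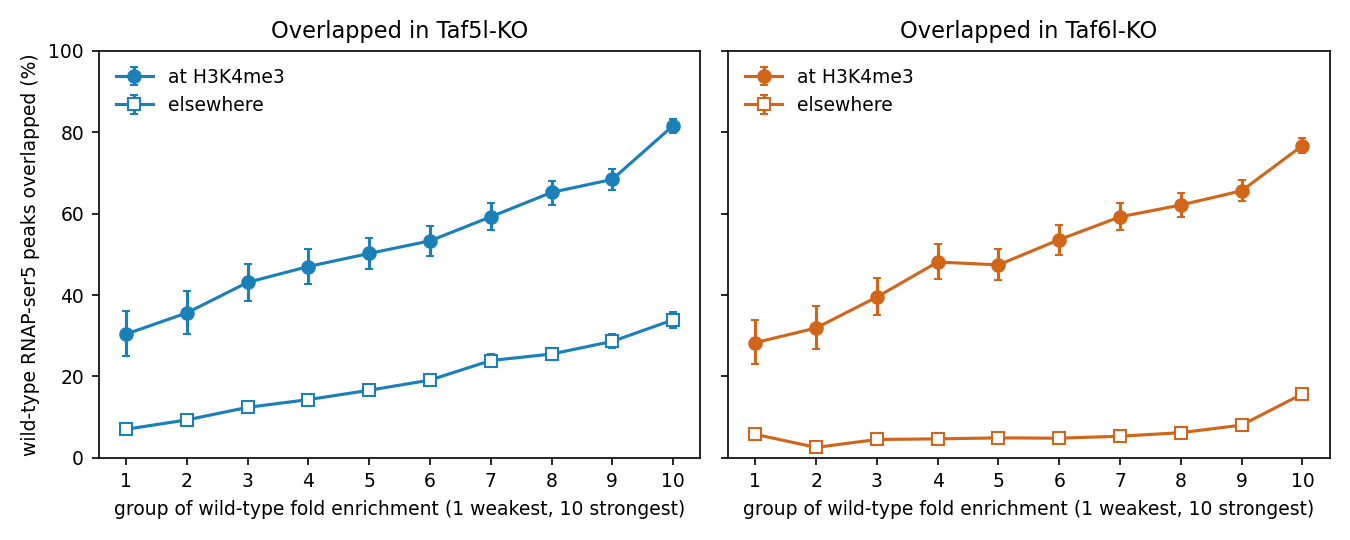
Percent of wild-type RNAP-ser5 peaks overlapped by at least 1 bp in the Taf5l-KO (left) and the Taf6l-KO (right), by 10 equal groups of wild-type fold enrichment; filled circles are peaks at H3K4me3, open squares peaks elsewhere, bars 95% binomial intervals. In each group the circles lie above the squares, reaching 81.6% and 76.7% against 33.9% and 15.7% in the strongest group.

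Width in the wild type made a larger difference elsewhere than at promoters. Of the wild-type peaks up to 200 bp wide, 40.2% at promoters and 5.83% elsewhere were overlapped in the Taf5l-KO, and 34.4% and 1.88% in the Taf6l-KO. Of those from 2000 to 5000 bp, the shares were 89.8% and 83.8% in the Taf5l-KO, and 65.7% and 27.3% in the Taf6l-KO. Above 5000 bp, 99.0% of the promoter peaks and 99.1% of those elsewhere were overlapped in the Taf5l-KO (96.4 to 99.9 and 97.0 to 99.9). In the Taf6l-KO the shares were 90.9% (85.9 to 94.5) and 74.9% (68.8 to 80.3). A wider peak has more bases that can be met by another, and the measure does not take this out.

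**Figure D4:**
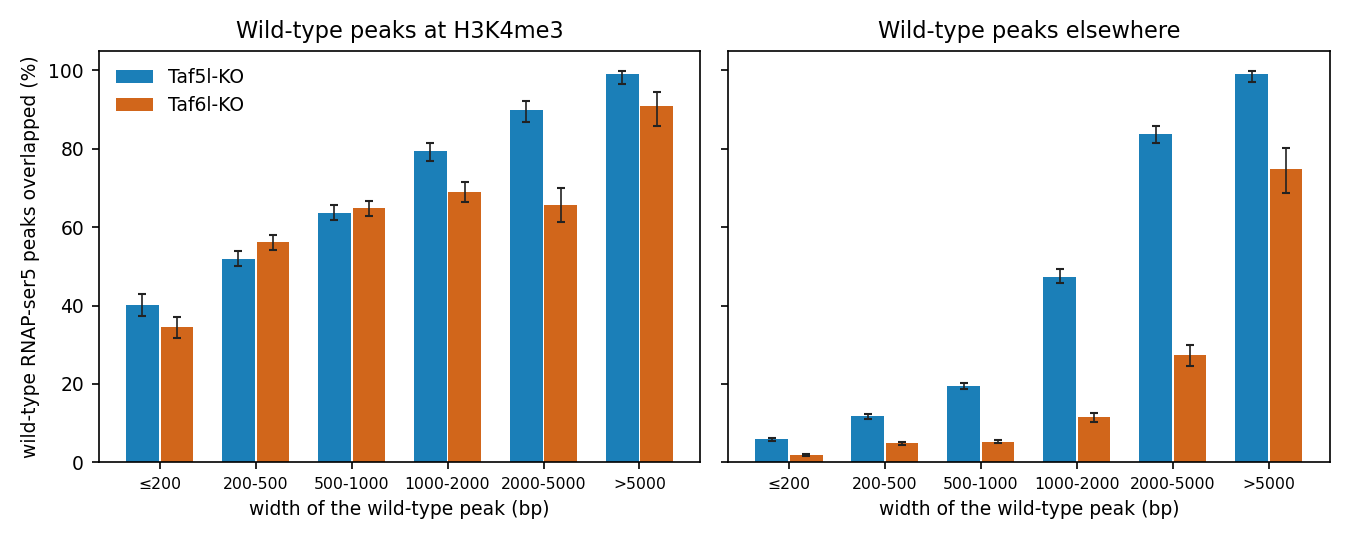
Percent of wild-type RNAP-ser5 peaks overlapped by at least 1 bp in each knockout, by width of the wild-type peak in bp, at H3K4me3 (left) and elsewhere (right); bars are knockouts and error bars 95% binomial intervals. Elsewhere the Taf5l-KO share climbs from 5.83% to 99.1% and the Taf6l-KO share from 1.88% to 74.9%.

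Taking both knockouts at once, 3581 of the 8262 wild-type promoter peaks (43.3%) recurred in both, 1524 in the Taf5l-KO alone, 1314 in the Taf6l-KO alone and 1843 (22.3%) in neither. The peaks found in both had a median width of 750 bp and 99.0% of them lay on wild-type RNAP. Those found in neither had a median width of 379 bp, and 50.9% lay on wild-type RNAP. H3K4me3 was still called at 72.7% of these sites in the Taf5l-KO and at 67.4% in the Taf6l-KO, and RNAP at 35.4% and 44.9%. At the peaks found in both, H3K4me3 was called in 97.9% and 97.7% of cases and RNAP in 95.8% and 99.3%. Promoters without an RNAP-ser5 peak in the knockouts thus had H3K4me3 and RNAP peaks there less often than those with one.

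Of the 1314 promoter peaks found in the Taf6l-KO alone, 95.4% lay on RNAP in wild type and 90.9% in the Taf6l-KO, but 46.7% in the Taf5l-KO. Wild-type H3K9ac was present at 4.72% of them, against 38.1% of the peaks found in both knockouts, 28.7% of those found in the Taf5l-KO alone and 6.89% of those found in neither. Total polymerase peaks were thus also called less often at these promoters in the Taf5l-KO than in the other genotypes, as they were at the peaks found in neither knockout. These promoters were chosen for having no Taf5l-KO RNAP-ser5 peak. Over all wild-type RNAP peaks at promoters, RNAP of the Taf5l-KO overlapped 76.5% and that of the Taf6l-KO 87.8%.

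Elsewhere, 850 of the 35132 wild-type peaks (2.42%) recurred in each of the knockouts and 27624 (78.6%) in neither. The peaks found in both were wide, with a median of 2042 bp, and 77.9% lay on wild-type RNAP and 93.8% on RNAP-ser2. Those found in neither had a median of 311 bp, with 7.62% on RNAP and 21.5% on RNAP-ser2. RNAP was called at 1.47% of these sites in the Taf5l-KO and at 2.97% in the Taf6l-KO.

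The peaks elsewhere were also sorted by the RNAP and RNAP-ser2 lists of the same genotype. The wild type had 3901 peaks elsewhere (11.1%) on both RNAP and RNAP-ser2, of which 61.0% (59.5 to 62.6) were overlapped in the Taf5l-KO and 22.2% (20.9 to 23.6) in the Taf6l-KO. It had 23026 (65.5%) on neither, of which 6.39% (6.08 to 6.71) and 3.14% (2.92 to 3.37) were overlapped. The number of peaks on both was 0.622 and 0.292 times the wild type in Taf5l-KO and Taf6l-KO, and the number on neither 0.282 and 0.246 times. Peaks on RNAP without RNAP-ser2 (1038 in wild type) were 0.449 and 0.149 times the wild type, and those on RNAP-ser2 without RNAP (7167) 0.540 and 0.181 times. Peaks elsewhere were thus fewer in the knockouts in all 4 classes. The lists that define the classes also differed in size between genotypes, and their part in these ratios was not tested. The lowest ratio was that of the class on neither list in the Taf5l-KO, and that of the class on RNAP alone in the Taf6l-KO.

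Distance from H3K4me3 separated the knockouts. The median distance of a peak elsewhere to the nearest H3K4me3 peak was 14.6 kb in wild type, 13.9 kb in the Taf5l-KO and 18.5 kb in the Taf6l-KO. Peaks at 50 kb or more made up 15.7% (15.3 to 16.1), 9.81% (9.31 to 10.3) and 24.8% (23.9 to 25.7). Wild-type peaks at that distance were overlapped in the Taf5l-KO in 8.52% (7.80 to 9.29) of cases, against 24.8% (22.8 to 27.0) of those within 1 kb. In the Taf6l-KO the corresponding shares were 7.49% (6.81 to 8.22) and 7.51% (6.30 to 8.87), with a lower 5.08% (4.71 to 5.48) between 5 and 20 kb, so that the Taf6l-KO showed no such fall from the nearest to the farthest peaks.

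The knockout lists also held peaks that the wild type lacked. At promoters, 3408 Taf5l-KO peaks (41.4%) and 2842 Taf6l-KO peaks (37.3%) overlapped no wild-type RNAP-ser5 peak. Promoter peaks were new less often than those of the whole lists, where 10479 of 21493 and 8360 of 15873 overlapped none. Almost all of these sites were promoters in the wild type too, since 96.6% and 98.2% overlapped wild-type H3K4me3, and 79.3% and 82.4% overlapped wild-type RNAP. Of the Taf5l-KO ones 31.0% (29.4 to 32.5) were also found in the Taf6l-KO, and of the Taf6l-KO ones 39.8% (38.0 to 41.6) in the Taf5l-KO, beside 56.7% and 61.1% of all promoter peaks of each list. Elsewhere the 7071 and 5518 such peaks were mostly of 1 list, with 1.84% and 4.91% found in the other knockout, beside 7.76% and 19.8% of all peaks elsewhere.

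Single regions give the scale of the strongest peaks. The highest fold enrichment of a wild-type promoter peak found in both knockouts was 48.0, on chromosome 11 from 101519380 to 101520231, where the Taf5l-KO peak had 29.8 and the Taf6l-KO peak 10.9. The next were on the same chromosome from 87284623 to 87285194 (41.1, with 17.6 and 8.20 in the knockouts) and from 87261817 to 87262494 (38.2, with 18.3 and 6.92). At each, RNAP and RNAP-ser2 were called in all 3 genotypes, and H3K9ac and Oct4 at least in wild type. H3K9ac was also called in both knockouts at the first region, and Oct4 in the Taf5l-KO at the third. Fold enrichments are the authors' values relative to local background, so they rank peaks within a list and are not compared between lists. The regions were also chosen by their wild-type value, so a lower value in a knockout shows nothing by itself.

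Elsewhere the strongest peaks after the first one found in both knockouts were at 18807165 to 18807470 of chromosome 19 (35.9) and at 96177677 to 96178274 of chromosome 3 (35.6). The region on chromosome 3 overlapped H3K4me3 and H3K9ac peaks in the Taf6l-KO, so it was elsewhere by the wild-type H3K4me3 list but not by that of the Taf6l-KO. The strongest wild-type promoter peaks missing from both knockouts were weaker. They had 7.01 (chromosome 3, 47976451 to 47976767), 6.54 (chromosome 2, 73224871 to 73225040) and 6.28 (chromosome 11, 41673598 to 41673960). RNAP was called at all 3 of these sites in the Taf6l-KO and at the one on chromosome 2 in the Taf5l-KO. Elsewhere the strongest missing peaks had 9.31, 7.68 and 7.67, on chromosomes 6, 14 and 7. These regions were chosen as overlapped or not, so they give values only and show nothing of how overlap goes with strength.

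Among the promoter peaks absent from wild type, the strongest of the Taf5l-KO was on chromosome 1 from 36364447 to 36364824, with 9.20. That of the Taf6l-KO was on chromosome 6 from 44680984 to 44681328, with 9.58. Both sites carried H3K4me3, RNAP and RNAP-ser2 in all 3 genotypes. The first also had a Taf6l-KO RNAP-ser5 peak, and the second had none in the Taf5l-KO.

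Because the promoter peaks of each genotype were defined on its own H3K4me3 list, the 3 lists were merged and the 23866 regions with H3K4me3 in all genotypes, of 36567 in total, were examined as one fixed set. RNAP-ser5 was present at 29.2% (28.7 to 29.8) of them in wild type, 31.4% (30.8 to 32.0) in the Taf5l-KO and 31.0% (30.4 to 31.6) in the Taf6l-KO. In 3636 regions it was present in all genotypes and in 12596 (52.8%) in none. The similar totals hid different sets: 1022 regions had it in wild type alone, 1779 in the Taf5l-KO alone and 1509 in the Taf6l-KO alone. The regions of the Taf5l-KO alone were wide in H3K4me3 (median 1957 bp) and those of the Taf6l-KO alone narrow (636 bp).

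Sorting the fixed set by H3K4me3 width brought this out. When it was cut into 4 equal groups, in the narrowest group (up to 713 bp) RNAP-ser5 was present at 23.2% (22.1 to 24.3) of the regions in wild type, 12.8% (11.9 to 13.6) in the Taf5l-KO and 34.5% (33.3 to 35.7) in the Taf6l-KO. In the widest group (1912 bp and more) it was present at 38.3% (37.0 to 39.5), 58.2% (57.0 to 59.5) and 37.8% (36.6 to 39.1). The Taf5l-KO was thus below the wild type at narrow regions and above it at wide ones, and the Taf6l-KO was above it at narrow regions and level with it at wide ones. Total polymerase had the same order of wild type and Taf5l-KO, with 45.8% and 22.1% in the narrowest group and 80.7% and 88.4% in the widest. The Taf6l-KO values for RNAP were 44.1% and 90.5%. RNAP-ser2 in the Taf5l-KO also lay below the wild type in the narrowest group (23.2% against 30.7%) and above it in the widest (64.5% against 54.4%). The Taf6l-KO values for RNAP-ser2 were 44.5% and 77.8%, above the wild type in both groups.

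**Figure D5:**
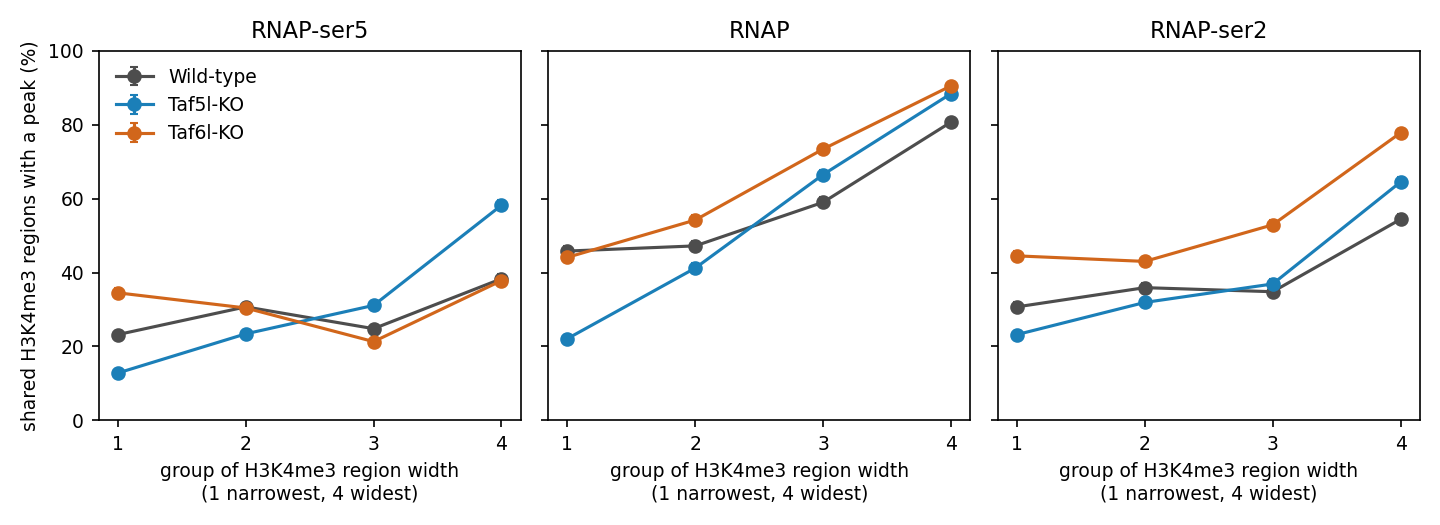
Percent of the H3K4me3 regions present in all genotypes that overlap a peak of RNAP-ser5, RNAP or RNAP-ser2, by 4 equal groups of H3K4me3 region width (1 narrowest, 4 widest), with 95% binomial intervals mostly smaller than the points. For RNAP-ser5 the Taf5l-KO line runs from 12.8% to 58.2% and crosses the wild-type line, while the Taf6l-KO line starts at 34.5% and ends at 37.8%.

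H3K9ac marked a set of promoters where the knockouts differed. At the 3795 regions of the fixed set with a wild-type H3K9ac peak, RNAP-ser5 was present at 57.5% (55.9 to 59.1) in wild type, 77.3% (75.9 to 78.6) in the Taf5l-KO and 55.2% (53.6 to 56.7) in the Taf6l-KO. H3K9ac itself was called at 2.74% of these regions in the Taf5l-KO and at 20.4% in the Taf6l-KO. The whole H3K9ac lists held 4024 peaks in wild type, 110 in the Taf5l-KO and 880 in the Taf6l-KO, and the depth of these libraries was not compared. RNAP-ser5 was thus called at more of these promoters in the knockout with the fewest H3K9ac peaks, whose RNAP-ser5 library was also the deepest. At the 20071 regions without wild-type H3K9ac the shares were 23.9% (23.3 to 24.5), 22.7% (22.1 to 23.3) and 26.5% (25.9 to 27.1).

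Wild-type promoter peaks at sites of the transcription factors were also followed. Myc is a growth-promoting transcription factor, and Oct4 a core factor of pluripotency. Of the 279 wild-type promoter peaks on a wild-type Myc peak, 95% (91.7 to 97.2) were overlapped in the Taf5l-KO and 72.8% (67.1 to 77.9) in the Taf6l-KO. Of the 147 on an Oct4 peak, 85.7% (79.0 to 90.9) and 58.5% (50.1 to 66.6) were overlapped. At the 306 on a region bound by tagged TAF6L in the streptavidin libraries the shares were 81.0% (76.2 to 85.3) and 57.5% (51.8 to 63.1), against 61.0% and 59.3% of the promoter peaks without one. These peaks had a higher wild-type fold enrichment, with a median of 4.57, 4.90 and 4.17 in that order against 3.84 over all promoter peaks, and strength was not taken out. Elsewhere, 118 wild-type peaks lay on an Oct4 peak, of which 52.5% (43.1 to 61.8) were overlapped in the Taf5l-KO and 26.3% (18.6 to 35.2) in the Taf6l-KO. The 66 on a TAF6L region were overlapped in 34.8% (23.5 to 47.6) and 36.4% (24.9 to 49.1) of cases. Over all wild-type peaks elsewhere the shares were 18.0% and 5.82%, and the median fold enrichment was 3.45, against 3.77 on Oct4 peaks and 3.40 on TAF6L regions.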

How the data were processed

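ChIP libraries of J1 mouse embryonic stem cells were used, 1 per antibody and genotype. The authors aligned reads to mm9 with Bowtie2 2.3.2 and called peaks with MACS2 2.1.1.20160309, per the submitters' processing notes, which also name deepTools 2.5.3. Per the file headers, MACS2 ran with broad linking (q-value cutoff 0.05, 0.1 for linking), kept 1 tag per position, modelled the fragment size and scaled the larger of library and matched input to the smaller. Each deposited list gives the pileup, a signal in tags, the fold enrichment, a ratio to local background, and −log10 p and −log10 q, all as the authors' MACS2 wrote them. These values describe, rank or filter peaks within a list only. Positions are 1-based.

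RNAP-ser5 peaks off chromosomes 1 to 19 were left out (2404 in wild type, 768 in Taf5l-KO and 1356 in Taf6l-KO). Overlap meant at least 1 shared bp. Strong peaks had −log10 q of at least 5 or were the 5000 of a list with the highest −log10 q. H3K4me3 peaks of the 3 genotypes were merged into regions, and the fixed set held those with H3K4me3 in each. TAF6L regions were the merged peaks of the tagged lines that no peak of the BirA control overlapped. The regions named are, at promoters and elsewhere, the 3 wild-type peaks of highest fold enrichment that both knockouts overlap, the 3 that neither overlaps, the 2 highest of each knockout absent from wild type, and the 3 widest wild-type promoter peaks; some are given in part. Intervals are exact binomial at 95%. No test between genotypes was possible. The overlap steps were tested on simulated data. The peak set, lists and comparisons were chosen with earlier results of these data known. Gene names, gene lists, promoter sequences and the state of the targeted genes are not analysed here, because no annotation or genome of mm9 was used. Alternatives were 8 planned settings and 1 added later. Python 3.11.15, numpy 2.4.6, pandas 2.3.3, SciPy 1.17.1 and matplotlib 3.10.9 were used.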

Additional observations from a re-analysis of the deposited data

Results flagged for a closer look

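Several RNAP-ser5 values moved in opposite directions from the wild type in the knockouts, and with 1 library per genotype none of these differences was tested. The median width of peaks elsewhere rose by 152 bp in the Taf5l-KO, and in the Taf6l-KO it fell by 142 bp. The number of peaks of over 5000 bp elsewhere was higher by 57 in the Taf5l-KO, and in the Taf6l-KO it fell by 224. Both follow the order of the unique tags.

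At shared H3K4me3 regions with wild-type H3K9ac, the share with RNAP-ser5 was higher by 19.8 percentage points in the Taf5l-KO and fell by 2.35 in the Taf6l-KO. Without wild-type H3K9ac it fell by 1.2 in the Taf5l-KO and was higher by 2.58 in the Taf6l-KO.

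Across 4 equal groups of H3K4me3 region width, the share with RNAP-ser5 fell by 10.4 percentage points in the Taf5l-KO in the narrowest group and was higher by 11.3 in the Taf6l-KO, whose library was the shallowest. In the third group it was higher by 6.27 in the Taf5l-KO and fell by 3.49 in the Taf6l-KO. In the widest group it was higher by 20.0 in the Taf5l-KO, and the Taf6l-KO difference of -0.436 points lies within the binomial intervals of both shares.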

How the results depend on the processing

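Of 128 values recomputed under other settings, 54 stayed close (shares and widths within their interval, number ratios within 1.5 times), 73 moved and 1 reversed; the promoter share was above wild type in both knockouts in 8 of 8 settings, promoter overlap above overlap elsewhere in 9 of 9, and the order of widths elsewhere was kept in 6 of 6. Values are given as wild type, Taf5l-KO, Taf6l-KO for shares and widths, and as Taf5l-KO, Taf6l-KO for ratios and overlaps. With −log10 q of at least 5, shares were 72.1%, 87.7% and 90.4%, promoter widths 889, 913 and 714 bp, widths elsewhere 367, 1595 and 224 bp, number ratios 2.25 and 3.75 at promoters and 0.815 and 1.03 elsewhere (the last reversed), and overlaps 66.2% and 39.4% at promoters and 30.5% and 20.0% elsewhere. In the strongest 5000, shares were 43.2%, 70.6% and 79.4%, promoter widths 687, 702 and 620 bp, widths elsewhere 234, 800 and 154 bp, promoter ratios 1.63 and 1.84, the Taf6l-KO ratio elsewhere 0.363, and overlaps 54.2% and 50.6%, and 15.9% and 6.90%. With 50% of the peak covered, shares were 15.7%, 34.5% and 45.5% and overlaps 48.6% and 49.2%, and 12.1% and 2.30%. With peaks less than 1000 bp apart counted as overlapping, shares were 22.9%, 41.5% and 50.6%, the Taf6l-KO promoter overlap 56.3% and overlaps elsewhere 26.5% and 10.0%. With such peaks merged, shares were 20.6%, 43.2% and 49.3%, promoter widths 600, 568 and 499 bp, the Taf5l-KO width elsewhere 560 bp, the Taf6l-KO promoter overlap 61.6% and overlaps elsewhere 15.8% and 6.31%. The wild-type H3K4me3 list for all genotypes gave shares of 39.7% and 48.9% in the knockouts. H3K4me3 peaks with −log10 q of at least 5 gave shares of 15.0%, 34.9% and 43.1%, widths elsewhere of 386 and 241 bp in wild type and Taf6l-KO, a Taf6l-KO promoter width of 509 bp, and overlaps of 68.2% and 68.4%, and 18.9% and 6.74%. With chromosomes X and Y, the Taf5l-KO share was 39.1% and the Taf6l-KO promoter overlap 60.6%. Strong wild-type peaks against whole knockout lists, a setting chosen after seeing the data, gave 94.8% and 87.5% at promoters and 61.0% and 51.5% elsewhere. The cause was not tested. No paired analysis was possible because each antibody has 1 library per genotype. Numbers, widths and covered lengths are those of lists from libraries of unequal depth with many duplicates, which the lists do not allow to be thinned to a common depth.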

Other observations

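RNAP-ser5 peaks of one knockout that were compared with the other gave the same contrast between places. Of the Taf6l-KO promoter peaks, 61.1% (60.0 to 62.2) were overlapped in the Taf5l-KO, and of the Taf5l-KO promoter peaks 56.7% (55.6 to 57.7) in the Taf6l-KO. Elsewhere 19.8% (18.9 to 20.6) and 7.76% (7.31 to 8.23) were overlapped. The Taf6l-KO peaks elsewhere on both RNAP and RNAP-ser2, 1139 in number, were overlapped by a wild-type RNAP-ser5 peak in 89.1% (87.2 to 90.9) of cases and by a Taf5l-KO peak in 84.4% (82.1 to 86.4). The 5660 on neither were overlapped in 17.4% (16.4 to 18.4) and 4.66% (4.13 to 5.25).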
